A study of Mus musculus with 5 samples.

Results

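The 10 genes described here are markers of the secretory epithelium of the mouse prostate lobes: Pbsn, Msmb, Sbp, Apof, Azgp1, Ceacam10, Defb50, Tgm4, Acpp and Tmprss2. They were chosen as a named list and found by matching the Ensembl gene IDs of the deposited tables to mouse symbols, and all 10 are among the 51912 genes of those tables. RNA was sequenced from tissue labelled dorsolateral prostate of 5 male mice aged 7 months. The 3 Ghr deletion mice were Ghrflox/flox, carried ROSA26Cre-ERT2+/0, a Cre recombinase that tamoxifen switches on and whose locus is active in most cell types, and carried SV40 C3(1) T-antigen+/0. The 2 tamoxifen control mice were Ghrflox/flox with SV40 C3(1) T-antigen+/0, and their labels list no Cre. All 5 mice therefore carried the viral T antigen under the promoter of a prostatic secretory protein gene, a transgene that gives rise to prostate tumours, and the same tamoxifen course (250 mg/kg a day, 5 days) had ended 1 month before tissue was taken. Every difference between the groups is also a difference between mice with and without Cre.

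Prostate luminal cells secrete a large part of the seminal fluid. Most of their secretory genes depend on androgens, and in rodents each lobe (anterior, dorsal, lateral and ventral) makes its own mixture, so such genes are used to tell the prostate from neighbouring glands and one lobe from another. Probasin (Pbsn) is the usual marker of mouse prostate epithelium, and its promoter is used to drive transgenes there.

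Library totals ran from 28536636 to 37910327 counts in the Ghr deletion libraries and were 47656212 and 13812454 in the tamoxifen controls. The TMM factors, which correct for differences in composition, were 1.00, 0.843 and 1.61 in the deletion libraries and 0.491 and 1.50 in the controls. Ghr, the targeted gene, read 8.13, 20.9 and 12.1 CPM (counts per 1000000 of the TMM-adjusted library size) in the deletion libraries and 14.4 and 31.3 CPM in the controls, so the groups overlapped (log2 fold change -0.73, edgeR adjusted p = 0.995). No deleted exon is named in the labels, so this count is a weak check of them. Control replicate 1 stood apart in most of the results below. Fold changes of the tested markers are given with and without that library. DESeq2 calls, and the calls and medians of gene lists, are given only over all libraries. The series calls the libraries of a group biological replicates, and the labels name no batch.

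Of the 10 markers, 5 stood below 1 CPM in every deletion library and in control replicate 2, and at 9.80 to 19.9 CPM in control replicate 1. These were Pbsn, Msmb, Sbp, Apof and Defb50, a grouping made after their values were seen. Tgm4 was also highest in control replicate 1 in CPM, by 5.15-fold over the next library, but not in TPM, the authors' values scaled per length. Ceacam10 was highest there at a much higher level, at 4.17 to 12.8 CPM in the deletion libraries against 22402 and 44.5 CPM in the controls. Acpp and Tmprss2 were lowest in control replicate 1, and Azgp1 was lowest in deletion replicate 3 in CPM. The markers thus gave no common answer on the labelled tissue, dorsolateral prostate: Pbsn was near 0 in the 4 libraries in which Acpp and Tmprss2 were higher than in control replicate 1.

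**Figure D1:**
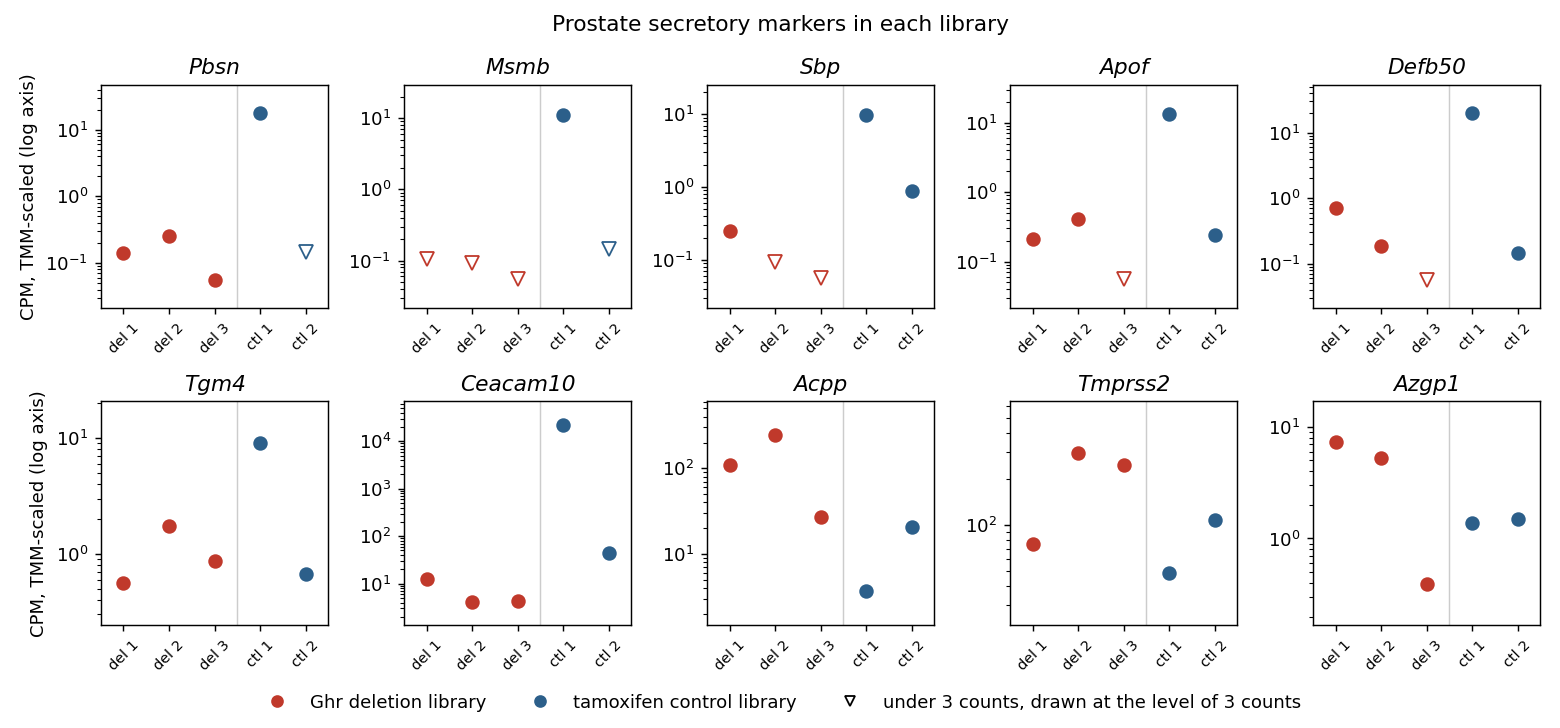
Level of each marker in each library, as TMM-scaled CPM on a log axis that differs between panels; red points are Ghr deletion libraries, blue points are tamoxifen controls, and open triangles mark fewer than 3 counts, drawn at the level of 3 counts. Control replicate 1 is the highest library for 7 of the markers, Ceacam10 included at 22402 CPM, and the lowest for Acpp and Tmprss2.

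Promoter sequences are shown for 5 markers, chosen to set genes high in control replicate 1 (Pbsn, Ceacam10 and Tgm4) beside genes low there (Acpp and Tmprss2). RefSeq's table for GRCm38.p6 held 7 of the 10 markers; Msmb, Apof and Defb50 had no entry. For Pbsn 30 bases of the minus strand at chrX:77853578-77853607 are given; they lie before the RefSeq start but inside the gene as GENCODE M21 annotates it, from a start further upstream. For the others up to 250 bases before the RefSeq start are given, ending where a GENCODE gene start lies before it, at chr7:24776917-24777166 (plus strand, Ceacam10), chr9:123034491-123034725 (plus, Tgm4), chr9:104337749-104337972 (minus, Acpp) and chr16:97611196-97611445 (minus, Tmprss2). Capitals mark exact matches to AGAACA on either strand, the hexamer of steroid hormone response elements, and to TATAAA on the gene's strand.
Pbsn: caactgggatgcAGAACActgctcacgcca
Ceacam10: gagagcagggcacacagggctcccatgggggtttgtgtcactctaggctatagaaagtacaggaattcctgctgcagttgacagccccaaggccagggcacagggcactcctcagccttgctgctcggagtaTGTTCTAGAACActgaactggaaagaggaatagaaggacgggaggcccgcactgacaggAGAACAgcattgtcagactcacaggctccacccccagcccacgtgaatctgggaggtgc
Tgm4: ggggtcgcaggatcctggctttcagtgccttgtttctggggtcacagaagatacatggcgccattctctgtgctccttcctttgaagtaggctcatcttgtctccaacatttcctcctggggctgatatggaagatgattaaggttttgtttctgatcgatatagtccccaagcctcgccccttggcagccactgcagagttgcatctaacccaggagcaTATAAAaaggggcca
Acpp: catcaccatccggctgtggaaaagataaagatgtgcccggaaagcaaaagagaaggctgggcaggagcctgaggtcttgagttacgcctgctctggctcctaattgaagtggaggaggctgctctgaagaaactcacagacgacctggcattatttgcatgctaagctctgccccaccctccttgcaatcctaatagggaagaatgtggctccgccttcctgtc
Tmprss2: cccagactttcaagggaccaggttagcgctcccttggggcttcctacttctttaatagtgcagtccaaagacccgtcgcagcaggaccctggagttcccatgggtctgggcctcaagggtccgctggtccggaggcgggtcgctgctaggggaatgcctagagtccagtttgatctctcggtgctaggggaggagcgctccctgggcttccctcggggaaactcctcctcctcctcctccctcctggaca

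The AGAACA hexamer began 95 bases before the RefSeq start of Pbsn. In Ceacam10 it occurred 118, 112 and 59 bases before the RefSeq start used above, the first 2 as adjoining copies on opposite strands. RefSeq gives Ceacam10 another start further downstream, and the same matches lie 155, 149 and 96 bases before that one. Over the full windows, from 250 bases before to 50 after the start, AGAACA on either strand was in 4 of the 7 markers (Pbsn, Ceacam10, Sbp and Azgp1) and in 21.3% of the 27025 genes of the table. The full palindrome, AGAACA and TGTTCT parted by 3 bases of any kind, was in none of the 7 and in 3 of the 27025 genes. TATAAA was in Pbsn and Tgm4, and in 9.77% of genes. A match of letters is a description of the window and not a measured binding site.

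Among the secreted binding proteins, Pbsn, an androgen-regulated lipocalin (ENSMUSG00000000003 at chrX:77837901-77853623 on the minus strand in GENCODE M21, build GRCm38, as for the positions below), had 4, 8 and 3 counts in the deletion libraries and 411 and 1 counts in the controls. In CPM these were 0.140, 0.251 and 0.0557 in the deletion libraries against 17.6 and 0.0484 in the controls. The controls thus held both the highest and the lowest library, and the groups overlapped. Between the controls alone the ratio of replicate 1 to replicate 2 was 363, with a 95% interval of 64.8 to 14381 that covers counting error only and is wide because replicate 2 had 1 count. Pbsn did not pass the filter on low counts, and the two-sided exact permutation p of its log2(CPM + 0.5) was 0.4; with 3 against 2 libraries no p under 0.1 can be had.

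Msmb (ENSMUSG00000021907 at chr14:32142023-32158370 on the plus strand) encodes beta-microseminoprotein, an abundant protein of human prostatic fluid. It had 0 counts in all 3 deletion libraries and 263 and 1 counts in the controls. A count of 0 allows up to 3 counts, which is 0.105, 0.0940 and 0.0557 CPM in the deletion libraries. The deletion libraries lay below both controls, but for control replicate 2 by a single count, and Msmb too fell outside the filter (exact permutation test, two-sided p = 0.1, the smallest possible).

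Sbp (ENSMUSG00000024128 at chr17:23941672-23945607 on the plus strand) encodes the spermine-binding protein of rodent ventral prostate secretion. It had 7, 1 and 1 counts in the deletion libraries and 229 and 18 counts in the controls. As CPM it read 0.245, 0.0313 and 0.0186 in the deletion libraries and 9.80 and 0.871 in the controls. It was the member of this set in which control replicate 2 also stood above every deletion library by more than a few counts. With control replicate 1 set aside, the deletion libraries pooled had 0.0903 of the control replicate 2 level (95% interval 0.0357 to 0.212, counting error only). edgeR put its log2 fold change at -5.83 (SE 1.38; Benjamini-Hochberg adjusted p = 0.985; 95% interval -9.13 to -2.53), and at -3.19 without control replicate 1. Sbp lies near Sbpl, a related gene, and its expected counts of 228.76 and 17.51 in the controls were not whole, so some of its reads were shared out between places in the transcriptome.

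Apof (ENSMUSG00000047631 at chr10:128268671-128270153 on the plus strand) encodes apolipoprotein F, which is known mainly as a liver-derived protein of plasma lipoproteins. It had 6, 13 and 0 counts in the deletion libraries and 311 and 5 counts in the controls, and the groups overlapped. The log2 fold change of -5.08 (SE 1.78, edgeR adjusted p = 0.991) was -0.27 without control replicate 1. Liver genes (4 matched) summed to 0.0701, 30.7 and 1.02 CPM in the deletion libraries and 0.984 and 0.339 CPM in the controls, and their part in the Apof values was not tested.

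Defb50 (ENSMUSG00000058568 at chr8:21823539-21831296 on the plus strand) is a beta-defensin gene, of the family of small antimicrobial peptides. It had 20, 6 and 2 counts in the deletion libraries and 464 and 3 counts in the controls. Its groups overlapped as well. Its log2 fold change was -5.07 (SE 1.80, edgeR adjusted p = 0.991) over all libraries and 1.04 without control replicate 1, so the direction turned with that library.

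Pbsn, Msmb, Apof and Defb50 had closely similar profiles over the 5 libraries. Likeness was measured as the root mean square difference of log2(CPM + 0.5) after each gene was centred on its own mean, in log2 units. The 6 pairs among these 4 genes differed by 0.241 to 0.439. Pbsn differed from Sbp by 0.736, from Tgm4 by 0.887, from Ceacam10 by 2.77 and from Acpp by 3.69. Sbp stood nearer to Msmb (0.537) and Apof (0.559), so the set had no sharp edge. Outside control replicate 1 the 4 genes lay under the added 0.5 CPM, except Defb50 in deletion replicate 1 (0.701 CPM). The measure therefore compares mostly their height in control replicate 1. All members of the set share the same 5 libraries and a single high library, so this is a description with no test. Of 12500 genes with a mean of at least 1 CPM and an informative symbol, 17 (0.136%) lay within 0.5 of Pbsn. The 5 nearest were Cabp1, a neuronal calcium-binding protein gene, at 0.183, Serpina5, a protease inhibitor of male reproductive fluids, at 0.196, Msmb at 0.241, Apof at 0.297 and Sval2 at 0.353. Serpina5 had 0 CPM in all deletion libraries and 11.6 and 0 CPM in the controls.

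**Figure D2:**
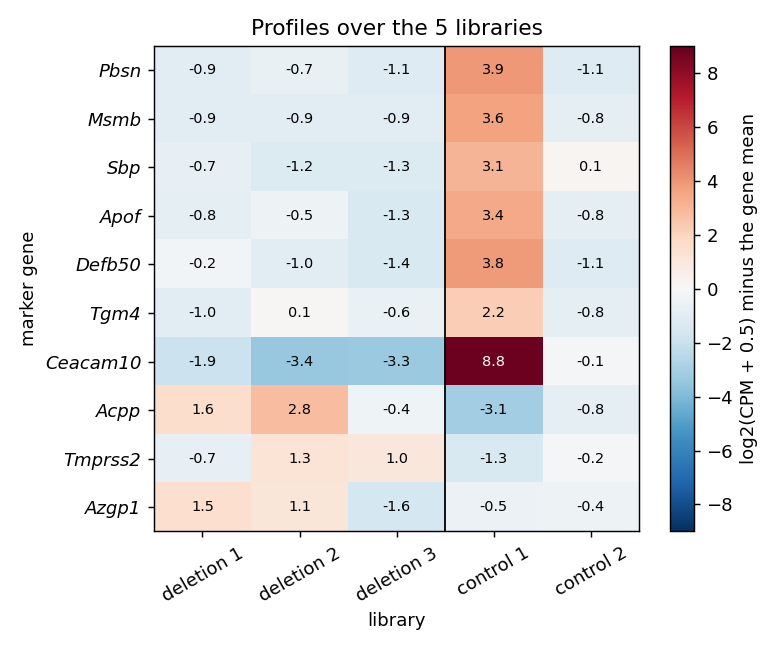
Profile of each marker over the 5 libraries, as log2(CPM + 0.5) minus the mean of that gene; red cells are above and blue cells below the mean, and the line parts the Ghr deletion libraries on the left from the tamoxifen controls on the right. Control replicate 1 is above the mean for the first 7 genes and below it for Acpp, Tmprss2 and Azgp1.

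Ceacam10 (ENSMUSG00000054169 at chr7:24777206-24784657 on the plus strand) encodes a secreted member of the carcinoembryonic antigen family that the mouse seminal vesicle also makes. By TPM it was the most abundant of the markers in both controls and the third in each deletion library. It had 12.8, 4.17 and 4.38 CPM in the deletion libraries and 22402 and 44.5 CPM in the controls, so every deletion library lay below both controls. The controls themselves differed 504-fold (95% interval 472 to 538, counting error only). Its log2 fold change was -10.63 (edgeR adjusted p = 0.985; SE 2.39; 95% interval -16.38 to -4.87). Without control replicate 1 it was -2.65, and the deletion libraries pooled had 0.144 of the level of control replicate 2 (counting interval 0.131 to 0.159). In the authors' TPM, which are scaled per length, Ceacam10 stood at 8.67, 3.18 and 11.0 in the deletion libraries and at 4548 and 59.6 in the controls, and it ranked above 99.9% of the 18615 tested genes in control replicate 1. It made up 6.20%, 0.756% and 1.56% of the summed counts of the 10 markers in the deletion libraries and 99.4% and 25.3% in the controls.

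Of 10 genes of the seminal vesicle, the gland whose proteins coagulate the semen, 7 also lay below both controls in all deletion libraries. Over all tested genes that share was 10.2%. DESeq2 called 7 lower, against 0.702% of genes. edgeR called 0, with 7 lower at an unadjusted p under 0.05, against 3.23% of genes. The summed seminal vesicle list (10 genes matched) took 27.4%, 28.7% and 1.43% of counts in the deletion libraries and 36.2% and 2.78% in the controls. Within that list Svs6 read 10.8, 6.48 and 5.92 CPM in the deletion libraries and 41009 and 116 CPM in the controls, highest in control replicate 1 as Ceacam10 was, whereas Svs2 read 191558, 270169 and 1753 CPM against 193471 and 2213 CPM. Sva was at 0 counts in deletion replicate 2, and no other gene of the list was at 0 anywhere. The part of seminal vesicle RNA in the Ceacam10 values was not tested.

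Azgp1 (ENSMUSG00000037053 at chr5:137981520-137990233 on the plus strand) encodes zinc-alpha-2-glycoprotein, a secreted relative of the class I histocompatibility proteins that is abundant in human seminal plasma. It read 7.29, 5.23 and 0.390 CPM in the deletion libraries and 1.37 and 1.50 CPM in the controls. On this scale deletion replicates 1 and 2 were high and deletion replicate 3 was the lowest library, so the groups overlapped. In TPM it had 4.02, 3.05 and 0.670 in the deletion libraries and 0.200 and 1.39 in the controls, with control replicate 1 the lowest. The log2 fold change of 1.58 (SE 1.10, edgeR adjusted p = 0.995) had a 95% interval of -1.04 to 4.20, and was 1.52 without control replicate 1. In CPM the ratio of control replicate 1 to control replicate 2 was 0.912 (0.539 to 1.55, counting error only), the nearest to 1 of the 10 markers; in TPM those of Tgm4 were nearer. The genes nearest to its profile were Mum1l1 at 0.146, the potassium channel gene Kcnd2 at 0.243, Cited4 at 0.290, Pcsk5 at 0.302 and Coro2a at 0.305, and 25 of 12500 genes (0.200%) lay within 0.5.

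The remaining markers are enzymes. Tgm4 (ENSMUSG00000025787 at chr9:123034726-123067561 on the plus strand) is the prostate transglutaminase that cross-links seminal vesicle proteins into the copulatory plug. It read 0.561, 1.75 and 0.872 CPM in the deletion libraries and 9.03 and 0.678 CPM in the controls. The groups overlapped, and the log2 fold change was -2.19 (SE 1.02, edgeR adjusted p = 0.991) over all libraries and 0.65 without control replicate 1. In TPM the groups overlapped too: Tgm4 had 0.430, 0.890 and 1.55 TPM in the deletion libraries and 0.770 and 0.760 TPM in the controls. With limma on log2(TPM + 0.1) its log2 fold change was 0.14 (unadjusted p = 0.924). The median of all tested genes on that scale was 0.91, so no reversal can be read from it. The gene length that the authors' program assigned to Tgm4, an average over transcripts weighted by their estimated abundance, was 907, 1423 and 1255 bases in the deletion libraries and 2081 and 1095 bases in the controls. The tables list 7 Tgm4 transcripts, so the few reads of the other 4 libraries were assigned to shorter transcripts on average than those of control replicate 1.

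Acpp (ENSMUSG00000032561 at chr9:104288251-104337748 on the minus strand) encodes prostatic acid phosphatase and ran opposite to the markers described first. It read 109, 245 and 26.7 CPM in the deletion libraries and 3.68 and 20.4 CPM in the controls. All deletion libraries lay above both controls, though deletion replicate 3 exceeded control replicate 2 by little. Its log2 fold change was 3.39 (edgeR adjusted p = 0.991; SE 1.14; 95% interval 0.64 to 6.15), with a range of 2.49 to 5.10 over the other settings tried. Without control replicate 1 it was 2.63. In TPM the values were 14.1, 36.7 and 12.4 in the deletion libraries and 0.150 and 4.85 in the controls. Nearest to its profile stood Crabp2, a retinoic acid-binding protein gene, at 0.254, the 1 gene of 12500 (0.008%) within 0.5, followed by Pik3r5 at 0.605, the claudin gene Cldn10 at 0.609, the proton pump subunit gene Atp6v1c2 at 0.653 and Ggt5 at 0.672. Crabp2 read 23.1, 35.9 and 4.36 CPM in the deletion libraries and 0.214 and 2.18 CPM in the controls.

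Genes of the epididymis and vas deferens, the sperm ducts, were highest in deletion replicates 1 and 2, as Acpp and Azgp1 were. The summed list (9 genes matched) read 5148, 4359 and 34.3 CPM in the deletion libraries and 6.20 and 1603 CPM in the controls. It consisted almost entirely of Akr1b7 and Crisp1, while the epididymal genes Lcn8, Lcn9 and Defb41 had 0 counts in 4 or 5 of the libraries. Whether RNA of the sperm ducts has a part in the Acpp and Azgp1 values was not tested.

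Tmprss2 (ENSMUSG00000000385 at chr16:97564682-97611195 on the minus strand) is an androgen-regulated membrane serine protease of luminal epithelium and was the marker with at least 1132 counts in every library. It read 74.9, 294 and 248 CPM in the deletion libraries and 48.4 and 107 CPM in the controls. Deletion replicates 2 and 3 were above both controls and deletion replicate 1 lay between them. Its log2 fold change was 1.40 (edgeR adjusted p = 0.991, SE 0.654, 95% interval -0.16 to 2.97), and 0.94 without control replicate 1. Among all markers it was the one of highest TPM in deletion replicates 2 and 3, at 61.7 and 157, and in deletion replicate 1 it had 13.5 TPM beside 14.1 TPM of Acpp. The genes nearest in profile were Rab11fip5, a vesicle transport gene, at 0.204, the interferon gamma receptor gene Ifngr1 at 0.246, Sbspon at 0.279, Osbpl3 at 0.291 and Cidec at 0.293, and 61 of 12500 genes (0.488%) lay within 0.5.

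Order of level within a library can be read only per length. In control replicate 1 the order by TPM was Ceacam10 at 4548, Defb50 at 18.6, Msmb at 5.04, Pbsn at 4.08, Tmprss2 at 2.63, Sbp at 2.41 and Apof at 2.03, with Tgm4, Azgp1 and Acpp below 1. In control replicate 2 it began with Ceacam10 at 59.6, Tmprss2 at 36.3 and Acpp at 4.85, and no other marker but Azgp1, at 1.39, and Sbp, at 1.38, reached 1 TPM. In each deletion library Tmprss2, Acpp and Ceacam10 held the highest 3 places, though in deletion replicate 2 Azgp1 had 3.05 TPM beside 3.18 TPM of Ceacam10. The summed TPM of Pbsn, Msmb, Sbp, Apof, Defb50 and Tgm4 was 3.21, 2.07 and 2.18 in the deletion libraries and 32.9 and 3.54 in the controls. Summed TPM of Acpp, Tmprss2 and Azgp1 was 31.7, 101 and 170 in the deletion libraries and 2.98 and 42.5 in the controls. In such bulk tissue, fewer cells of a type and less RNA per cell cannot be told apart.

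Tested gene by gene over all libraries, 8 of the 10 markers passed the filter on low counts, and edgeR's quasi-likelihood test called 0 of these 8 and 0 of all 18615 genes (0%) at a Benjamini-Hochberg adjusted p under 0.05. At an unadjusted p under 0.05 there were 5 of the 8 markers (Ceacam10, Sbp, Apof and Defb50 lower, Acpp higher), where 4.92% of all tested genes had one (3.23% lower, 1.69% higher). DESeq2 called 3 of the 8, where it called 0.899% of genes (0.702% lower, 0.197% higher): Ceacam10 (adjusted p = 0.000118) and Sbp (adjusted p = 0.00206) were lower and Acpp (adjusted p = 0.0420) was higher. The deletion libraries lay wholly on one side of both controls for 3 of the 8 tested markers, against 19.6% of tested genes. These were Sbp and Ceacam10 on the lower side (10.2% of genes) and Acpp on the higher side (9.43%). Msmb, which was not tested, also lay lower, but its 1 count in control replicate 2 is under the floor of 3 counts. The median log2 fold change was -3.63 over the 8 markers and 0.0045 over all tested genes. The filter needs more than 1 library at its cutoff, which left out Pbsn and Msmb, high in control replicate 1 alone. The markers were chosen with earlier results of these data known, so the counts over the 8 describe them and no more.

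**Figure D3:**
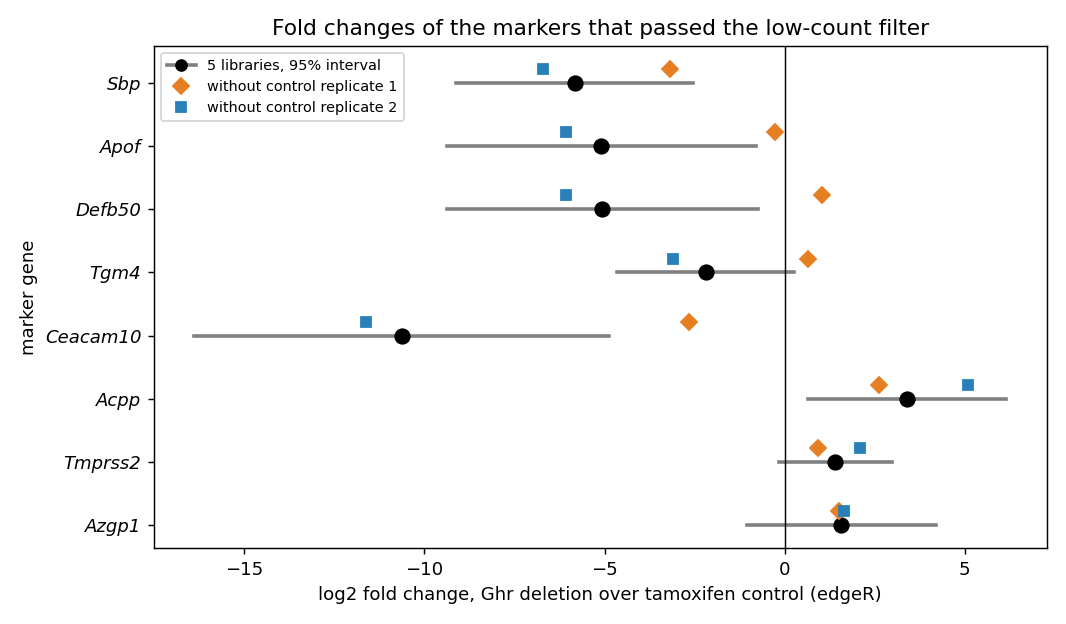
Log2 fold change of Ghr deletion over tamoxifen control for the 8 markers that passed the filter, from edgeR; black points with grey bars are all 5 libraries with 95% intervals, orange diamonds leave out control replicate 1 and blue squares leave out control replicate 2. Without control replicate 1, Ceacam10 moves to -2.65 and Defb50 and Tgm4 cross to the higher side, while Acpp, Tmprss2 and Azgp1 stay on the higher side.

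The fold changes depended on which control was used. Without control replicate 2, the log2 fold change of Ceacam10 was -11.63 and that of Acpp was 5.10. In that fit the control arm is control replicate 1 alone, so the spread comes from the deletion libraries and the control is assumed to vary like them. The filter then asked for only 1 library, so all 10 markers passed it, Pbsn and Msmb through control replicate 1 alone. Markers lower in the deletion libraries in that fit are ones already seen to be high in that library. Without control replicate 1, edgeR called 0 genes and no marker, with 343 genes at an unadjusted p under 0.05. Without control replicate 1 and deletion replicate 3 it called 85 genes (0.459%) and no marker. Over the tested genes control replicate 1 was the highest of the 5 libraries for 25.5% and the lowest for 24.9%. It exceeded the other 4 by more than 20-fold for 32 genes (0.172%), Ceacam10, Apof and Defb50 among them. This comparison was chosen after the values were seen. The filter removes genes high in that library alone, such as Pbsn (70.2-fold) and Msmb (77.5-fold over the floor), so the share leaves these out.

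Other genes of prostate secretion did not follow a single course. Of 15 on a list drawn up with earlier results of these data known, 14 were matched and 11 tested. By fold change 7 were lower and 4 higher, with a median of -0.11. edgeR called none, and 2 had an unadjusted p under 0.05, both lower, against 3.23% of tested genes. DESeq2 called the same 2 lower, against 0.702% of genes. These were Spink1, a secreted trypsin inhibitor, at 0.421, 0.0313 and 0.408 CPM in the deletion libraries against 4390 and 11.2 CPM in the controls, and Gsdma, a gasdermin gene, at 0.140, 0.0626 and 0.408 CPM against 18.4 and 0.726 CPM. Both were highest in control replicate 1, as Ceacam10 was. By contrast Spink8, another inhibitor of that family, read 228, 367 and 54.0 CPM against 38.5 and 363 CPM, and Wfdc15b read 62.4, 166 and 96.2 CPM against 52.2 and 114 CPM, with overlapping groups.

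Hoxb13 was scarce in every library, while luminal keratin genes were plentiful. Hoxb13, a lineage factor of the prostate and hindgut, read 0, 0.0313 and 0.0742 CPM in the deletion libraries and 0.556 and 0 CPM in the controls. The luminal keratin gene Krt8 read 116, 171 and 196 CPM against 157 and 242 CPM. Of the 16 genes of the luminal identity list 13 were tested, 6 lower and 7 higher; the median of their fold changes was 0.071 on the log2 scale, with no call by edgeR (0 with an unadjusted p under 0.05) or DESeq2. Krt18 was the gene of that list with all deletion libraries above both controls, at 572 ± 290 CPM (SD, n = 3) against 336 ± 12.0 CPM (SD, n = 2), and did not pass (edgeR adjusted p = 0.995).

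Of 18 androgen response genes 10 were higher and 8 lower, with a median of 0.11. edgeR called none, with 2 at an unadjusted p under 0.05, against 4.92% of tested genes, and DESeq2 called none. Abcc4, an organic anion exporter, read 31.6, 38.7 and 33.8 CPM in the deletion libraries and 16.7 and 8.96 CPM in the controls, and was the gene of the list with all deletion libraries above both. Steap4, a metalloreductase, read 2.45, 4.82 and 8.93 CPM against 16.7 and 27.4 CPM, and Maf, a transcription factor, 9.01, 4.48 and 8.45 CPM against 10.4 and 15.5 CPM, with all deletion libraries below both controls. Fkbp5, a co-chaperone induced by androgens and glucocorticoids, read 169, 132 and 40.6 CPM in the deletion libraries and 121 and 31.7 CPM in the controls.

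**Figure D4:**
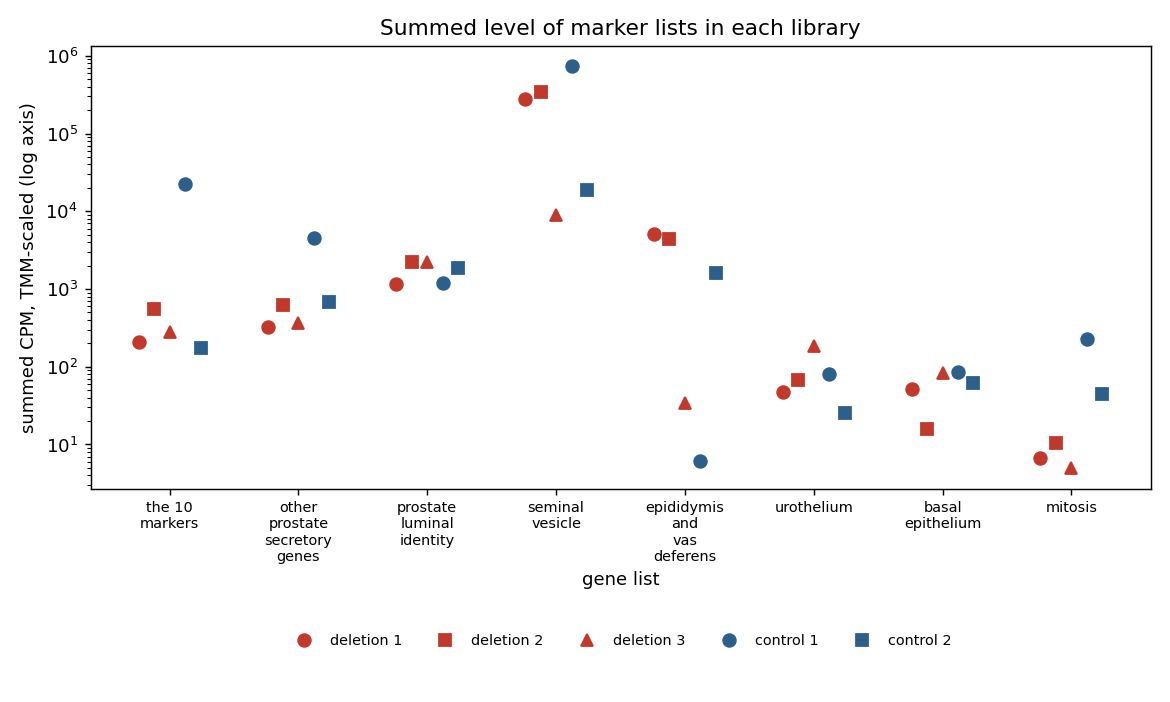
Summed TMM-scaled CPM of gene lists in each library, on a log axis; red symbols are Ghr deletion libraries and blue symbols tamoxifen controls, and the symbol shape marks the replicate. Control replicate 1 stands highest for the 10 markers, at 22537 CPM, of which Ceacam10 alone gives 22402 CPM. It stands highest for other secretory genes at 4522 CPM, of which Spink1 alone gives 4390 CPM. The seminal vesicle list and mitosis are highest in control replicate 1 as well. Control replicate 1 is also highest, by little, for basal epithelium, and lowest for the epididymis and vas deferens list, at 6.20 CPM.

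Lists of other tissues and states differed between the same libraries. Mitosis genes summed to 6.66, 10.6 and 4.92 CPM in the deletion libraries and 231 and 44.1 CPM in the controls, and all 7 were below both controls; edgeR called 0 of them (7 at an unadjusted p under 0.05) and DESeq2 called 6 lower. The urothelium list summed to 47.0, 68.4 and 187 CPM against 80.0 and 25.2 CPM, with Upk3a at 0 counts outside deletion replicate 3. Basal epithelium genes summed to 51.5, 15.9 and 84.0 CPM against 85.8 and 62.4 CPM, stroma genes to 3684, 957 and 2239 CPM against 1497 and 2643 CPM, and leukocyte genes to 32.9, 20.05 and 36.2 CPM against 51.7 and 87.6 CPM. Neuroendocrine genes summed to 1.40, 1.88 and 3.77 CPM against 0.128 and 3.29 CPM, and salivary and lacrimal gland genes to 2.73, 5.73 and 4.31 CPM against 34.4 and 5.13 CPM. Below both controls in all deletion libraries were 2 of 4 basal, 3 of 6 stroma and 4 of 6 leukocyte genes, against 10.2% of all tested genes. Above both were 3 of 6 neuroendocrine genes, at few counts, against 9.43%. DESeq2 called 1 of these basal genes lower, Krt15, and none of the stroma, leukocyte or neuroendocrine genes. The part of these differences in the marker values was not tested. Genes whose profile was nearest to that of Sbp included 2 of mitosis, Kif4 at 0.233 and Cenpe at 0.260, beside Stxbp6 at 0.215, Traf1 at 0.217 and Inpp5j at 0.277, and 42 of 12500 genes (0.336%) lay within 0.5 of it.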

How the data were processed

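Frozen tissue gave total RNA for a TruSeq stranded library kit, per the labels' protocols. Named in the submitters' processing notes are RSEM 1.3.0, STAR 2.5.3a, bcl2fastq 2.20.422 and build GRCm38. The annotation release and the strand setting of the counting were not given in the sources used here; reads of overlapping genes may thus be shared. The authors' deposited tables hold, per the file headers, RSEM expected counts with no normalization, and TPM, scaled by length within each library. The deposited gene length is an average over transcripts.

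Expected counts were rounded to whole numbers. All 51912 genes were read, and 279 had no symbol. The comparison used edgeR 4.0.16 (R 4.3.3): filterByExpr (18615 genes left), TMM, robust glmQLFit, then glmQLFTest on the group, with no covariate. The SE is the size of the log2 fold change divided by the square root of F. DESeq2 1.42.0 and limma 3.58.1 (on log2(TPM + 0.1) and log2(TPM + 1)) were alternatives, as were other scalings, no filter, each library left out, and a replicate block. The fit was tested on simulated data. Two-sided exact permutation tests ran over the 10 ways to assign libraries to groups. Ratios between libraries carry exact binomial 95% intervals; both these and the floor of 3 counts cover only counting error, because PCR copies are not independent molecules. The spread between animals (common biological coefficient of variation 0.520, median SE 0.529) sets the precision.

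Named genes were all markers, the 5 genes of nearest profile for Pbsn, Sbp, Acpp, Azgp1 and Tmprss2, and genes of the prostate and androgen lists whose groups did not overlap; examples beyond these (Spink8, Wfdc15b, Fkbp5, Krt8, Hoxb13, Svs2, Svs6, Sva, Akr1b7, Crisp1, Lcn8, Lcn9, Defb41, Upk3a) were chosen after their values were seen. The markers and lists were chosen with earlier results of these data known. List symbols Pate14 and Aoc1l3 found no match. Positions are those of GENCODE M21 and RefSeq for GRCm38.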

Additional observations from a re-analysis of the deposited data

How the results depend on the processing

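Acpp, Tmprss2 and Azgp1 kept their direction in all 13 other settings, as did Ceacam10 and Sbp; over these settings Ceacam10 ranged from -11.63 to -2.40, Sbp from -7.58 to -1.37, Tmprss2 from 0.78 to 2.35 and Azgp1 from 0.94 to 2.11. Tgm4 turned to 0.65 without control replicate 1, to 0.77 without control replicate 1 and deletion replicate 3, to 0.14 with limma on log2(TPM + 0.1) and to 0.11 with log2(TPM + 1). Defb50 turned to 1.04 without control replicate 1 and to 1.58 without both of those libraries, and Apof to 0.35 without both. With single libraries left out, Tgm4 ranged from -3.09 to 0.65 and Defb50, which did not pass the filter without deletion replicate 1, from -6.06 to 1.04. The cause was not tested. TPM moved the median of all genes to 0.91 and 0.54 with those pseudocounts, and library totals alone moved it to 0.23, so fold changes on those scales are read against these shifts. Genes called numbered 0 in edgeR, 164 in DESeq2, 46 with library totals alone, and 85 without control replicate 1 and deletion replicate 3; leaving out single libraries gave 0 to 48. Markers called numbered 0 in edgeR, 3 in DESeq2 and 1 (Ceacam10) with library totals alone, where 46 of 18615 genes were called. They numbered 0 with any single deletion library left out. Marker calls from fits that leave 1 control are not counted here, since their spread comes from the deletion libraries alone. Ceacam10 also passed with limma on TPM (adjusted p = 0.0125 and 0.0185). Markers whose groups did not overlap numbered 4 of 10 (19.6% of tested genes), 7 without control replicate 1 and deletion replicate 3 (67.8% of genes), and 5 to 9 with single libraries left out (30.3% to 56.2% of genes, 56.2% where the markers numbered 9), so fewer libraries raise both. The labels do not say that shared replicate numbers mark shared litters or batches. With the replicate block, over the 4 libraries numbered 1 and 2, edgeR called 2 genes and no marker; the same 4 libraries without the block, which is the fit without deletion replicate 3, also gave 2. Deviations of same-numbered libraries correlated at 0.180 (replicates 1) and -0.142 (replicates 2). Deviations of 2 controls from their mean mirror each other, so these values cannot show whether libraries were paired. Counts below 10 in 4 libraries limit Pbsn and Msmb, for which only large differences were detectable at this depth.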
